A study of Homo sapiens with 4 samples.

Results

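Replication-dependent histone genes encode the H1, H2A, H2B, H3 and H4 proteins that package newly copied DNA. They were taken as all genes whose symbol begins with HIST1H, HIST2H, HIST3H or HIST4H and that have a protein-coding transcript in the deposited files, leaving out symbols that end in PS or in P and a digit. This gave 71 of 58174 genes: 6 for H1, 17 for H2A, 18 for H2B, 15 for H3 and 15 for H4. The 71 gene identifiers carry 70 symbols, since HIST1H3D stands for 2 identifiers. On the genome build GRCh38, 56 members lie in the HIST1 cluster (chr6:25726132-27893843), 11 in the HIST2 cluster (chr1:149782689-149887916), 3 in HIST3 on 1q and 1, HIST4H4, on 12p.

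The study profiled Daoy cells, an established human medulloblastoma line, by RNA sequencing of total RNA. It held 2 wild type libraries and 2 EED-knockout libraries, with no treatment or time course. EED belongs to the core of Polycomb repressive complex 2, which places the silencing mark H3K27me3 on histone H3. The labels do not say how EED was edited, nor whether replicates are separate clones or cultures. The p-values therefore rest on the scatter of 4 libraries, part or all of which may be technical.

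Most messenger RNAs end in a poly(A) tail, but the usual messenger of a replication-dependent histone gene does not. It ends a few bases after a short stem-loop, which the stem-loop binding protein SLBP recognises and U7 small nuclear ribonucleoprotein helps to cleave, and it accumulates in S phase, when NPAT drives transcription in nuclear histone locus bodies. Some of these genes also make polyadenylated messengers that run past the stem-loop, a form described in differentiated and transformed cells. RNA selected by its poly(A) tail captures mainly the latter form, and the sources used here do not give the selection.

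The stem-loop is the feature that sets these messengers apart, so each form found in the members is shown with a named member. The sequences are GENCODE 29 transcripts on GRCh38, written 5′ to 3′ as DNA letters with 4 bases before and 10 bases after, and capitals mark the 16 bases of the stem-loop.
HIST1H2AC (chr6:26124665-26124694, plus strand): caaaGGCTCTTTTCAGAGCCcccctaccgt
HIST1H2BD (chr6:26158583-26158612, plus strand): caaaGGCTCTTTTAAGAGCCacgcatgttt
HIST4H4 (chr12:14770714-14770743, minus strand): aaaaGGCCCTTTTCAGGGCCcccaaactgt
HIST1H4I (chr6:27139650-27139679, plus strand): aaaaGGCCCTTTTTAGGGCCcctaagcttt
HIST1H3E (chr6:26225592-26225621, plus strand): caaaGGCTCTTCTCAGAGCCaaccactttg
HIST1H2AG (chr6:27133511-27133540, plus strand): caacGGCTCTTTTCAGGGCCacccacgtct

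The form printed for HIST1H2AC was found in 18 members of H2A, H2B and H3. The form of HIST1H2BD was found in 5 members, all of H2B or H3. H4 genes carried their own forms, that of HIST4H4 in 5 members and that of HIST1H4I in 3. The forms of HIST1H3E and HIST1H2AG were each found in 1 member. The histone 3′ stem-loop consensus was searched on the transcript strand and was present in 48 of 101 annotated member transcripts (47.5%), against 113 of 206694 transcripts in GENCODE 29 (0.0547%). Another 34 member models hold coding sequence only, so the stem-loop could not be in them.

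Promoters of the members are short and share a few elements, so 4 are shown as the 120 bases before the annotated start, from RefSeq on GRCh38. Capitals mark the motif CCAAT, the motif TATAAA and the octamer ATTTGCAT, each searched on both strands. HIST1H1C, HIST1H2BK and HIST1H4I were the highest members of their types, and HIST2H2BE was chosen after its values were seen. For HIST1H4I the RefSeq start lies inside the single-exon GENCODE model that carries its counts (chr6:27138588-27139881). The bases shown for HIST1H4I are therefore part of that model.
HIST1H1C (chr6:26056471-26056590, minus strand): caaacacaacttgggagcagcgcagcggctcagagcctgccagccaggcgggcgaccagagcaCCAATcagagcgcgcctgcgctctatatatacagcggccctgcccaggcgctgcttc
HIST1H2BK (chr6:27146859-27146978, minus strand): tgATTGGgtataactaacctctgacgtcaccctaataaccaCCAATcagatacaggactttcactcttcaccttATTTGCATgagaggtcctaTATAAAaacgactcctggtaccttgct
HIST2H2BE (chr1:149886683-149886802, minus strand): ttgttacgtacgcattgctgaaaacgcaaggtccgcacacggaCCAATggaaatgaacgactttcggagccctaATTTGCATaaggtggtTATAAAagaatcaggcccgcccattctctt
HIST1H4I (chr6:27139162-27139281, plus strand): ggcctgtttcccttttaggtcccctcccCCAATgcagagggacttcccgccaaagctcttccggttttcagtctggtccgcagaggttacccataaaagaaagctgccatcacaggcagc

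RefSeq promoters were matched for 65 members and searched over the 250 bases before the start. They cover 64 distinct intervals, since those of HIST1H2AD and HIST1H3D coincide. CCAAT was found in 84.6% of them, against 32.0% of all 35116 RefSeq promoters, and in every matched H1, H2A, H2B and H3 promoter but only 3 of 13 H4 promoters. TATAAA was found in 66.2% of member promoters and 10.7% of all promoters. The octamer, which the factor OCT1 (POU2F1) binds in H2B promoters, was found in 40.0% of member promoters and 1.63% of all promoters. It stood in 14 of 18 H2B and 11 of 16 H2A promoters, in 1 of 12 H3 promoters and in no H1 or H4 promoter. Divergent H2A and H2B genes can share a promoter region, so these counts are not independent.

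Library totals lay between 17836112 and 19106382 estimated counts, and the members took 3516 (wild type 1), 4067 (wild type 2), 2509 (knockout 1) and 6323 (knockout 2) of them. A count of 3, taken as the floor, corresponds to 0.158 to 0.166 CPM, which is the count scaled to the size of the library, a limit that covers counting error only. EED itself had 626 and 500 wild type counts against 340 and 490 knockout counts (log2 fold change -0.49, 95% interval -1.12 to 0.13, edgeR adjusted p = 0.878). Of 9 cerebellar lineage and medulloblastoma genes listed, 6 passed the filter on low counts and 1, ATOH1, a transcription factor of cerebellar granule precursors, was at 0 in every library. Summed CPM in the order wild type 1, wild type 2, knockout 1 and knockout 2 was 0.605, 1.16, 1.53 and 0.748 for 4 leukocyte markers. For 3 endothelial markers it was 1.49, 4.53, 4.11 and 0.802, and for 3 erythroid markers it was between 0 and 0.685.

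Few members carried most of the histone signal. Of the 71 members, 9 had no count in any library, 35 had fewer than 10 counts in every library and 15 reached 100 counts in at least 1. The filter on low counts left 34 members for testing, namely 3 H1, 7 H2A, 11 H2B, 6 H3 and 7 H4 genes, and the other 37 were not tested. HIST1H4C, an H4 gene of the HIST1 cluster, had 8, 9, 5 and 13 counts in the order used above.

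Levels between genes were compared in TPM, a unit that divides by transcript length and scales each library to the same total. HIST1H2BK, an H2B gene, was highest, at 333, 340, 195 and 456 TPM. HIST1H1C, which encodes the linker histone H1.2, followed at 79.9, 147, 82.9 and 291 TPM. Their ranges over libraries overlapped, although HIST1H2BK was above HIST1H1C in TPM within each library. In estimated counts HIST1H1C was the higher of the pair in every library except wild type 1. HIST1H2BK has only a 381-base coding model, and 86.3% of its 31-base words are shared with other transcripts, so its level is uncertain.

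HIST2H2AA4, HIST1H2BD and HIST1H2BJ had mean levels of 43.8, 41.7 and 39.5 TPM, and the spread of each over libraries covered the others' means. HIST1H4I, the highest H4 gene, had a mean of 23.5 TPM. H3 genes were lower: HIST1H3B, HIST1H3D (identifier ENSG00000282988) and HIST1H3E had means of 6.94, 3.97 and 2.69 TPM. Their order in TPM was the same in each of the 4 libraries, although their ranges overlapped. In estimated counts their order was reversed in every library. HIST1H3B has only a 411-base coding model, while the HIST1H3E model with most counts has 2679 bases. Their order in TPM thus depends on the models. After HIST1H1C, the next H1 genes, HIST1H1E and HIST1H1B, were at means of 2.80 and 2.31 TPM.

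**Figure D1:**
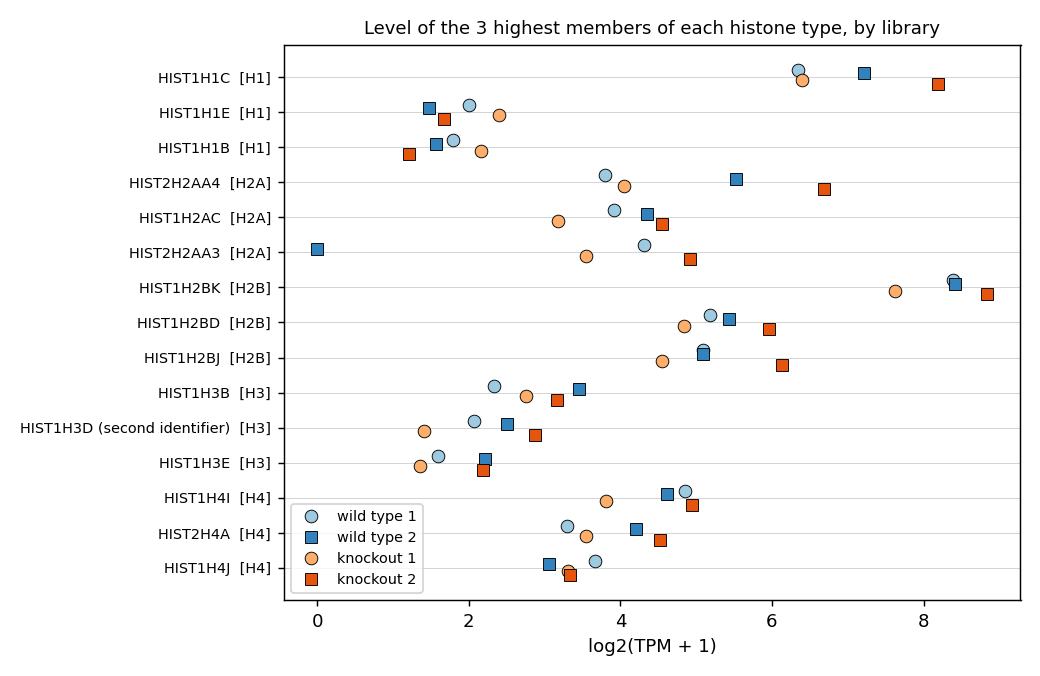
The horizontal axis gives log2(TPM + 1) for the 3 members with the highest mean TPM of each histone type, and each point is 1 library (2 wild type, 2 EED-knockout). HIST1H2BK and HIST1H1C lie to the right, H3 genes to the left, and HIST2H2AA3 is at 0 in wild type 2.

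No replication-dependent histone gene was called different between genotypes. The quasi-likelihood test of edgeR passed 0 of 34 members at an adjusted p of 0.05, against 0 of 18349 genes tested (0%). At an unadjusted p below 0.05 it passed 0 members, against 5.90% of all genes. DESeq2 passed 0 members, against 0.371% of all genes. At an unadjusted p below 0.05 it again passed 0 members, and the share of all genes at that DESeq2 threshold is not given here. The smallest edgeR p over the members was 0.101 and the smallest adjusted p was 0.873. In RNA from bulk cells, fewer cells in S phase and less histone messenger in each cell cannot be told apart.

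Fitted log2 fold changes of knockout over wild type ran from -1.20 (HIST1H2BH) to 1.26 (HIST2H3A and HIST2H3C), with a median of 0.12 over the members and 0.01 over all genes. They were above 0 for 22 members and below 0 for 12, and 24 lay within 0.5 of 0. The 95% intervals were wide: their median half-width was 1.42 for the members and 0.71 for all genes, and 31 of 34 reached beyond a log2 change of 1 in at least 1 direction. The intervals of those 31 members thus include a change of more than 2-fold.

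**Figure D2:**
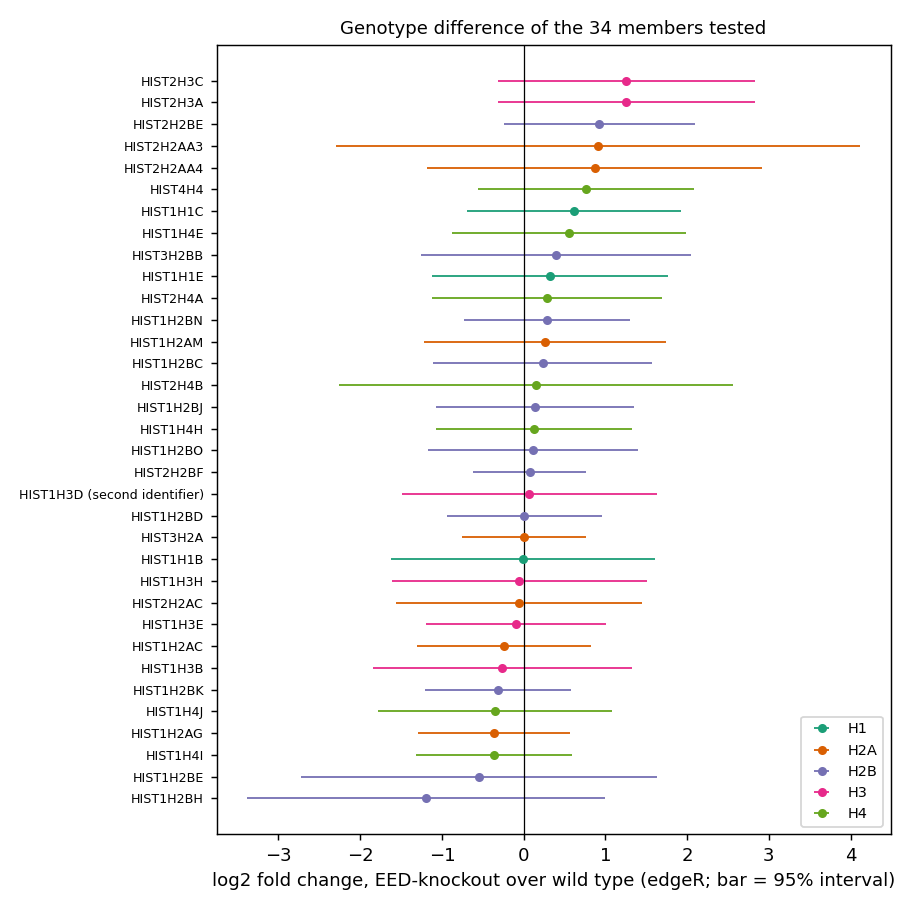
Each point is the edgeR log2 fold change of EED-knockout over wild type for 1 of the 34 members tested, coloured by histone type, with its 95% interval as a bar. The intervals of all 34 members cover 0, and the points lie between -1.20 and 1.26.

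Knockout libraries overlapped wild type libraries in CPM for 31 of the 34 members. Both knockout libraries were above both wild type libraries for 2 members (HIST4H4 and HIST1H2AM), a share below the 17.8% of all genes. HIST4H4, the H4 gene on 12p, had 11 and 19 wild type counts against 28 and 25 knockout counts (log2 fold change 0.76, interval -0.56 to 2.08, edgeR adjusted p = 0.895). Its protein-coding model had 2.0 and 5.4 wild type counts against 2.4 and 2.6 knockout counts, and these overlapped. The other counts fell on models annotated as noncoding or as subject to nonsense-mediated decay. HIST1H2AM, an H2A gene, had 10 and 10 wild type counts against 11 and 14 knockout counts (log2 fold change 0.26). Of the 31-base words of HIST1H2AM, 87.1% are shared with other transcripts, so its values are uncertain. Both knockout libraries were below both wild type libraries for 1 member, HIST1H2AG, against 18.0% of all genes. This H2A gene had 85 and 61 wild type counts against 58 and 60 knockout counts (log2 fold change -0.36).

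H1 linker histones bind DNA between nucleosomes. HIST1H1C held 89.0% to 98.4% of all H1 counts in a library. It had 469 and 809 wild type counts against 452 and 1581 knockout counts, so the knockout libraries were both the lowest and the highest. Its log2 fold change was 0.62 (interval -0.69 to 1.93, edgeR adjusted p = 0.914).

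HIST1H1E (histone H1.4) had 23 and 13 wild type counts against 31 and 16 knockout counts. HIST1H1B (histone H1.5) had 16 and 12 wild type counts against 21 and 8 knockout counts. In CPM, knockout 1 was the highest library for both genes, whereas it was the lowest for HIST1H1C. Their fitted changes were 0.32 and -0.01.

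H2A and H2B form the dimers on the outside of the nucleosome. HIST1H2AC, the H2A gene with the most counts, had 266 and 326 wild type counts against 141 and 378 knockout counts (log2 fold change -0.24, interval -1.31 to 0.83). HIST2H2AA4 had 62 and 209 wild type counts against 68 and 445 knockout counts. HIST2H2AA3 had 85 and 0 wild type counts against 44 and 121 knockout counts.

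The annotated transcripts of HIST2H2AA3 and HIST2H2AA4 are identical over the full 549 bases of the shorter, so kallisto divides their reads by a model and the single values are uncertain. Summed over both copies, added after the data were seen, the wild type libraries held 147 and 209 counts and the knockouts 112 and 566 (log2 fold change 0.88, interval -0.70 to 2.45, edgeR adjusted p = 0.895). Knockout 1 was again the lowest library and knockout 2 the highest. HIST2H3A and HIST2H3C, whose 1656-base transcripts are identical, gave summed counts of 29 and 54 (wild type) and 51 and 152 (knockout) (log2 fold change 1.24, edgeR adjusted p = 0.864). HIST2H4A and HIST2H4B have identical 610-base models, but these held no counts, and the models with counts differ in length. Of their 31-base words, 99.3% (HIST2H4A) and 99.8% (HIST2H4B) are shared with other transcripts. Together they gave 97 and 158 (wild type) and 71 and 246 (knockout). With these copies and the identifiers of HIST1H3D summed, edgeR and DESeq2 again called 0 members.

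HIST1H2BK held 30.2% to 40.4% of H2B counts. It had 606 and 588 wild type counts against 304 and 696 knockout counts (log2 fold change -0.31, interval -1.20 to 0.58, edgeR adjusted p = 0.942). HIST1H2BD had 255 and 286 wild type counts against 172 and 393 knockout counts (log2 fold change 0.01). HIST1H2BJ had 124 and 111 wild type counts against 68 and 200 knockout counts (log2 fold change 0.14). In these 3 H2B genes, as in HIST1H2AC, the wild type libraries lay between the knockout libraries.

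HIST2H2BE, whose promoter is shown above, had the highest fitted change above 0 of a member without an identical copy, and was singled out after its values were seen. It had 71 and 100 wild type counts against 95.2 and 242 knockout counts (log2 fold change 0.93, interval -0.25 to 2.10, edgeR adjusted p = 0.876). Only knockout 2 was above both wild type libraries. HIST1H2BH, the member with the lowest fitted change, had 6 and 23 wild type counts against 3 and 10 knockout counts.

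H3 and H4 form the core tetramer, and H3 carries the lysine that Polycomb repressive complex 2 methylates. HIST1H3E had 61 and 81 wild type counts against 46 and 92 knockout counts (log2 fold change -0.09). HIST1H3D (ENSG00000282988) had 48 and 56 wild type counts against 22 and 91 knockout counts (log2 fold change 0.07). This identifier spans chr6:26195595-26199293, which also covers HIST1H2AD, and 63.1% of its 31-base words are shared with other transcripts. The other HIST1H3D identifier had 0 and 0 wild type counts against 5.8 and 7.1 knockout counts and was not tested. HIST1H3B, which encodes H3.1, had 9 and 21 wild type counts against 11 and 15 knockout counts (log2 fold change -0.26). The last had its knockout values inside the wild type range.

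HIST1H4I held 46.0% to 62.6% of H4 counts, with 418 and 320 wild type counts against 182 and 413 knockout counts (log2 fold change -0.36, interval -1.31 to 0.59, edgeR adjusted p = 0.937). HIST2H4A had 61 and 140 wild type counts against 67 and 188 knockout counts (log2 fold change 0.29). HIST1H4J had 20 and 12 wild type counts against 13 and 13 knockout counts (log2 fold change -0.35). Of the 31-base words of HIST1H4J, 82.2% are shared with other transcripts. H4 genes other than HIST1H4G, which had no count here, encode the same protein.

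Summed by type, no histone type had both knockout libraries on the same side of both wild type libraries. H1 messengers summed to 28.3 and 46.5 CPM (wild type) and 26.8 and 85.9 CPM (knockout), a log2 ratio of means of 0.59. H2A summed to 36.5 and 42.8 CPM (wild type) and 24.6 and 63.7 CPM (knockout), a log2 ratio of 0.16. H2B summed to 82.6 and 87.2 CPM (wild type) and 52.9 and 120 CPM (knockout), a log2 ratio of 0.02.

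H3 summed to 9.25 and 13.1 CPM (wild type) and 7.90 and 20.6 CPM (knockout), a log2 ratio of means of 0.36. H4 summed to 36.8 and 35.2 CPM (wild type) and 20.0 and 48.0 CPM (knockout), a log2 ratio of -0.08 in CPM and 0.07 in TPM. In all 5 types knockout 1 was the lowest library and knockout 2 the highest, and knockout 2 was 2.26 to 3.21 times knockout 1. All types together came to 209 ± 22.1 CPM (wild type) and 235 ± 145 CPM (knockout; SD, n = 2 each), a log2 ratio of 0.17 with no test. Without knockout 2 the log2 ratio of this total was -0.66, and without knockout 1 it was 0.69.

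**Figure D3:**
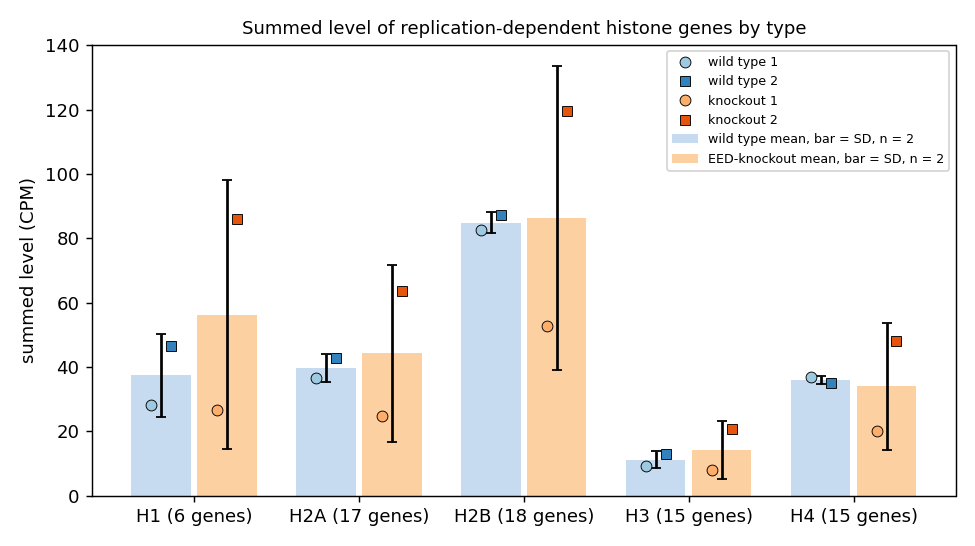
The vertical axis gives CPM summed over the members of each histone type; bars are means with SD (n = 2 libraries) and points are single libraries. For every type knockout 1 is the lowest point and knockout 2 the highest, with the wild type libraries between them.

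The HIST1 cluster summed to 158 and 177 CPM (wild type) and 97.3 and 252 CPM (knockout), a log2 ratio of 0.06. The HIST2 cluster summed to 27.2 and 38.3 CPM (wild type) and 26.7 and 74.1 CPM (knockout), a log2 ratio of 0.62. Of 9 HIST2 members tested, 8 had a fitted change above 0, but 6 of the 9 are the 3 pairs of identical or near-identical copies. Of 22 HIST1 members tested, 11 had a fitted change above 0 and 11 below. The difference between clusters was not tested.

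For these genes the distance between knockout 1 and knockout 2 exceeded the distance between genotypes. Regardless of sign, the median distance between the knockout libraries was 1.21 on the log2 CPM scale, against 0.26 between the genotype means, and it was the larger of the pair for 30 of 34 members (88.2%). Over all genes these medians were 0.37 and 0.24, and the knockout libraries lay farther apart than the genotypes for 63.6%. Knockout 2 was above knockout 1 in CPM for 30 of 34 members, against 50.2% of all genes, with a median signed difference of 1.21, against 0.00 over all genes. The exceptions were HIST1H1B, HIST1H1E, HIST2H2BF and HIST4H4. The 34 members include the HIST2 pairs of copies that share reads, so tallies over the members count some signals more than once. Knockout 1 was the lowest and knockout 2 the highest of the libraries for 16 members (47.1%), against 10.4% of all genes. Between the wild type libraries the median distance regardless of sign was 0.43 over the members and 0.27 over all genes, and wild type 2 was higher in 20 of 34 members.

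**Figure D4:**
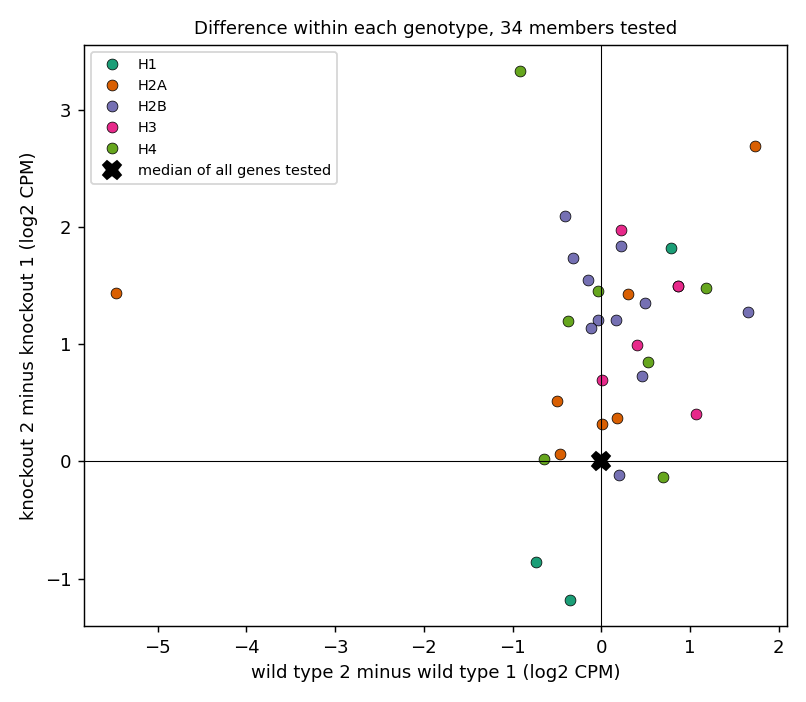
Each point is 1 of the 34 members tested, with the difference between wild type libraries on the horizontal axis and between knockout libraries on the vertical axis, both in log2 CPM; the cross is the median of all genes tested. Of the members, 30 lie above the horizontal line, while the cross lies at 0.00 on both axes.

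The difference between knockout libraries was present in most kinds of member. Its median was 0.52 over 7 H2A genes, 1.27 over 11 H2B genes, 1.24 over 6 H3 genes and 1.19 over 7 H4 genes, and -0.85 over 3 H1 genes, of which HIST1H1C was at 1.82. Over the 12 members with a mean of 100 or more counts in wild type it was 1.32, with 11 above 0, and over the other 22 it was 0.92, with 19 above 0. Over 14 members that shared under 10% of their 31-base words with other transcripts, for which read assignment is more certain, it was 0.92, with 11 above 0.

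Genes near the members and genes of like transcript size were set beside this difference. Other genes on 6p had a median difference between knockout libraries of 0.32 (482 genes), and those on 1q of 0.35 (790 genes). Among 22 other genes inside the HIST1 span the median was 0.30, and among 3 inside the HIST2 span it was -1.06, with 1 above 0. With the median of other genes on the same chromosome arm subtracted in each library, the median over members was 0.89 and 29 of 34 were above 0. Other genes with transcripts under 1000 bases had a median of 0.10 (2095 genes), and other single-exon coding genes had 0.04 (271 genes).

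Between the knockout libraries, genes of S phase and growth had medians closer to 0. Over 50 G1/S genes, which act at the onset of DNA replication, the median of knockout 2 minus knockout 1 was -0.11. The proliferation markers MKI67 and TOP2A summed to 1118 and 1222 CPM (wild type) and 1633 and 1461 CPM (knockout). RNAs without a poly(A) tail had a median difference between knockout libraries of -0.13 over the 6 tested. Between genotypes all 6 had a fitted change below 0, with a median log2 fold change of -0.49. An unadjusted edgeR p below 0.05 was reached by 3 of them, against 5.90% of all genes, and edgeR and DESeq2 called 0. What this means for the recovery of histone messengers was not tested.

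Most member counts were assigned to annotated transcripts other than the short stem-loop form. Transcripts in which the stem-loop stands more than 100 bases before the end (34 models of 24 genes, of which 21 models carry a poly(A) signal) took 42.0% and 38.9% of wild type and 42.6% and 35.9% of knockout member counts. Those that end within 100 bases of the stem-loop (14 models) took 5.93% and 6.95% of wild type and 6.61% and 10.2% of knockout member counts. Models of the coding sequence alone (34), on which both forms would be counted, took 34.6% to 38.5%, and the other 19 models took 15.4% to 17.5%. Some genes, such as HIST1H4I and HIST2H2BE, have only a model that runs past the stem-loop. Reads of a short form of these genes would be counted on that model too, so the shares do not separate the forms. Kallisto can assign reads only to the models it is given, so these shares also follow the annotation.

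**Figure D5:**
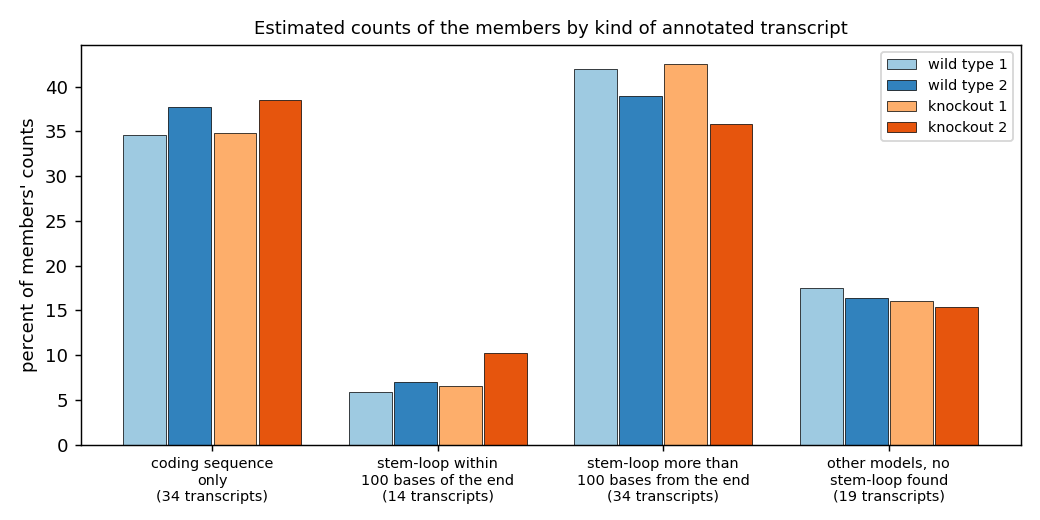
Bars give the percent of the members' estimated counts in each library on 4 kinds of annotated transcript. The kind with the stem-loop more than 100 bases from its end holds 35.9% to 42.6%, and the kind ending within 100 bases of it holds 5.93% to 10.2%, with knockout 2 highest. Where a gene has only a longer model, reads of a short form would be counted on it too.

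Detection was then set beside the poly(A) signal. For 23 members, at least 1 model holds AATAAA or ATTAAA in its last 50 bases, on the transcript strand: 22 of them passed the filter, none was at 0, and their median total over the libraries was 280 counts. For the other 48 members, 12 passed the filter, 9 were at 0 and the median total was 7.51 counts. These 48 still held 46.0% to 49.2% of member counts in a library, and HIST1H2BK, HIST1H1C and HIST1H4I are among them. The 34 coding-only models hold no sequence after the stop codon, where a signal would lie. The signal was present in 30.7% of all 101 member models and 31.3% of all GENCODE 29 transcripts. The share for the members includes those 34 coding-only models, which lowers it.

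The median difference between knockout libraries was 1.39 over the 22 tested members with a signal (21 above 0) and 0.62 over the 12 without (9 above 0). The difference between these groups was not tested. Member transcripts longer than 1000 bases took 37.5% ± 2.64 of member counts in wild type and 34.9% ± 2.72 in knockout (SD, n = 2 each), and the libraries overlapped. As shares of member TPM, the same transcripts took 9.87% ± 0.226 (wild type) and 8.84% ± 0.229 (knockout; SD, n = 2 each), and the libraries did not overlap. TPM divides by an effective length, which is set per library. For the 381-base model of HIST1H2BK it was 126 and 132 (wild type) and 113 and 112 (knockout). For the 2194-base model of HIST2H2BE it was 1925 and 1929 (wild type) and 1907 and 1902 (knockout). The part of these lengths in the separation of the TPM shares was not tested. In a fit over 56858 transcripts, edgeR called 0 of the 47 member transcripts tested, against 0% of all, and none had an unadjusted p below 0.05, against 4.64% of all. DESeq2 also called 0 of the 47, against 0.779% of all.

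Factors that make and process histone messengers were then compared. Of 31 listed factors found, 30 were tested and edgeR and DESeq2 called 0, with a median log2 fold change of -0.06, 10 above 0 and 20 below. SLBP had 1548 and 1555 wild type counts against 2002 and 1634 knockout counts (log2 fold change 0.17). NPAT had 552 and 529 wild type counts against 488 and 507 knockout counts (log2 fold change -0.18, edgeR adjusted p = 0.940).

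CASP8AP2 (FLASH), which works with the U7 particle in 3′ end cleavage, had 725 and 562 wild type counts against 383 and 680 knockout counts (log2 fold change -0.33). In CPM it was lowest in knockout 1, as were 58.8% of the members tested and 31% of all genes. Other listed factors, among them NPAT and LSM11, were also lowest in knockout 1, whereas SLBP and LSM10 were highest there. LSM10 and LSM11, proteins of the U7 particle, had log2 fold changes of 0.17 and -0.32, and ZNF473, a zinc finger protein bound to that particle, had -0.17. At an unadjusted p below 0.05, which 5.90% of all genes passed, 1 factor was higher, the transcription factor E2F1 (log2 fold change 0.46, edgeR adjusted p = 0.834), and 1 was lower, the spliceosome protein SNRPE (log2 fold change -0.71, edgeR adjusted p = 0.808). Both were named for that unadjusted p.

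Most replication-independent histones are made throughout the cell cycle from polyadenylated messengers, and can replace the replication-dependent forms, though not every gene listed here follows this pattern. Of 12 listed, 11 were tested and edgeR and DESeq2 called 0, with a median log2 fold change of 0.14. H1FX, the linker histone H1X, had 2687 and 2967 wild type counts against 4567 and 3760 knockout counts (log2 fold change 0.50, interval 0.04 to 0.96). Its groups did not overlap, at an unadjusted edgeR p of 0.0375 and an adjusted p of 0.810. H1F0 (H1.0) had 906 and 1198 wild type counts against 1554 and 855 knockout counts (log2 fold change 0.14).

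H3F3A and H3F3B both encode the replacement histone H3.3. H3F3A had 8538 and 5830 wild type counts against 4930 and 6050 knockout counts (log2 fold change -0.44). H3F3B had 13301 and 12262 wild type counts against 14058 and 14184 knockout counts (log2 fold change 0.09). H2AFZ (H2A.Z), H2AFX (H2A.X, which marks DNA breaks) and H2AFJ had log2 fold changes of -0.20, 0.28 and 0.56.

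Histone chaperones, which hand histones to DNA, gave 0 calls by edgeR or DESeq2 over 19 tested genes, with a median log2 fold change of 0.02. The 50 G1/S genes also gave 0 calls by either tool, with a median of 0.15. Both knockout libraries were above both wild type libraries for 24 of the 50, against 17.8% of all genes, and below for 3, against 18.0%. These lists hold genes in common, such as MCM2 and SLBP.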

How the data were processed

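Estimated counts per transcript were deposited by the authors, made with kallisto 0.43.1 (build hg38), per the submitters' processing notes. TPM values were deposited in the same files, scaled by effective length per the file headers. The sources used here do not give strand, RNA selection or the GENCODE release. Groups were taken from the labels.

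Per gene, estimated counts were added up and rounded to whole numbers. All 18349 genes left by filterByExpr (minimum count 10, minimum total 15) were fitted with the quasi-likelihood test of edgeR 4.0.16 (R 4.3.3), TMM scaling, no covariate and Benjamini-Hochberg adjustment over all of them, at a two-sided threshold of 0.05. Alternatives were DESeq2 1.42.0, voom and trend fits of limma 3.58.1 on log2(TPM + 1) and log2(TPM + 0.1), other size factors and filters, a replicate block and leaving out each library. CPM used TMM-scaled library totals, and log2 CPM a prior count of 2. Arm medians used genes above a mean log2 CPM of 3. The fits were also run on simulated data with 200 changed genes, and the outcome is not given here. Genes were simulated independently, so a shift shared by many genes between libraries of a genotype was not included.

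Named members were the 3 with the highest mean TPM of each type, up to 5 in each direction whose groups did not overlap, and 14 fixed genes. The members and lists were chosen with earlier results of these data known. Sequences came from GENCODE 29 and RefSeq, and protein sequences were not used here.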

Additional observations from a re-analysis of the deposited data

How the results depend on the processing

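edgeR called 0 members, 0 member transcripts and 0 genes of the 4 pathway lists under every alternative run, and DESeq2 and limma also called 0 of each where they were run. Over all genes, the 0 calls of edgeR became 68 with DESeq2, and 0 (without wild type 1), 4 (without wild type 2), 92 (without knockout 1) or 95 (without knockout 2) when a library was left out. With a library left out, its partner took the spread of the other genotype. The median change of the members ran from -0.51 (without knockout 2) to 0.48 (without knockout 1), and was -0.05 with limma-voom and -0.01 with no filter on low counts. Log2 ratios of summed levels, with each library left out in turn, ran from -0.48 to 1.20 for H1, -0.69 to 0.68 for H2A, -0.68 to 0.50 for H2B, -0.50 to 0.89 for H3, -0.85 to 0.42 for H4 and -0.66 to 0.69 for all types; each was below 0 without knockout 2. Without HIST2H2AA3 and HIST2H2AA4 the H2A ratio was -0.19. The difference in the share of long transcripts was -2.59 percentage points at 1000 bases and 0.40 at 1500 bases. Leaving out each library in turn moved the log2 fold changes of 19 named genes across 0, none of them called: from -0.57 to 1.27 for HIST1H1C, -0.21 to 0.79 for HIST1H1E, -0.84 to 0.51 for HIST1H1B, -1.06 to 2.00 for HIST2H2AA4, -1.14 to 0.31 for HIST1H2AC, -0.092 to 9.36 for HIST2H2AA3, whose highest value stands against a wild type library with 0 counts. The ranges were -1.04 to 0.18 for HIST1H2BK, -0.72 to 0.50 for HIST1H2BD, -0.85 to 0.73 for HIST1H2BJ, -0.74 to 0.47 for HIST1H3B, -1.30 to 0.77 for HIST1H3D, -0.69 to 0.33 for HIST1H3E, -1.09 to 0.12 for HIST1H4I. They were -0.65 to 1.01 for HIST2H4A, -0.67 to 0.057 for HIST1H4J, -0.82 to 0.041 for CASP8AP2, -0.45 to 0.072 for ZNF473, -0.038 to 1.63 for H2AFJ, -0.34 to 0.50 for H1F0. Values also crossed 0 for HIST1H1B with library totals (0.034) and log2(TPM + 1) (0.0039), HIST1H2BD with limma-voom (-0.11), HIST1H2BJ with limma-voom (-0.068), and HIST1H3B with log2(TPM + 1) (0.068) or log2(TPM + 0.1) (0.093). They did so for HIST1H3D with limma-voom (-0.27), log2(TPM + 1) (-0.15) or log2(TPM + 0.1) (-0.24), and for ZNF473 with log2(TPM + 1) (0.16) or log2(TPM + 0.1) (0.17). Same-numbered libraries deviated with a Pearson r of -0.14 across 18349 genes, which are not independent, so the numbers were not taken as pairs. With replicate number as a block, calls stayed at 0 for all genes and for members, the median of members was -0.03, and HIST1H2BD (-0.11), HIST1H2BJ (-0.052) and HIST1H3D (-0.23) crossed 0. The crossed pairing, added after the data were seen, also gave 0 calls. The causes of these shifts were not tested. Counts under 10 in 35 members limit what could be detected.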
